A study of Rattus norvegicus with 36 samples.

Results

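The collagen chain genes are described here in rat mammary cancers and normal mammary tissue. All probe sets whose only annotated symbol has the form Col, a number, a and a number were taken, without use of their values. This gave 58 of 31099 probe sets, which stood for 41 of 14218 gene symbols, and all 41 symbols were found in the RefSeq gene table. Of these, 51 probe sets and 37 genes passed the filter on low values, an intensity above 125.8 on at least 3 arrays, against 11773 genes in all. Col4a4, Col10a1, Col19a1 and Col24a1 did not pass it. Where a gene had several probe sets, as 14 genes did, the one with the highest mean over all arrays stands for the gene.

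Expression had been measured on 36 arrays from female Sprague-Dawley rats, of which 33 held mammary cancers and 3 held normal mammary tissue. The 10 groups of the labels are 3 normal tissues, 3 spontaneous cancers of untreated rats, 4 cancers after gamma rays to the whole body (1 Gy at 7 weeks of age), and cancers after a chemical with or without that radiation. The alkylating agent MNU (methylnitrosourea, 40 mg/kg into the peritoneum) preceded 5 cancers with and 4 without an H-ras mutation, and radiation plus MNU preceded 5 mutated and 4 nonmutated cancers. PhIP, a mutagen formed in cooked meat (40 mg/kg per day by gavage on 5 days a week for 2 weeks), preceded 1 mutated and 3 nonmutated cancers, and radiation plus PhIP preceded 4 nonmutated cancers. Rats given MNU or PhIP without radiation were also treated at 7 weeks of age. In the combined groups the chemical followed the radiation by 3 days, and the diet of all rats held 23.5% corn oil from 9 weeks of age. Spontaneous and radiation cancers were labelled nonmutated for H-ras. Separate rats are not stated for the cancers and no batch is named in the labels, so the p-values measure only the spread between these samples, which may be partly technical.

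Collagens are proteins of 3 chains wound into a triple helix. The fibrillar types, led by types I, III and V, form the cables of the connective tissue around mammary ducts, and the fibril-associated types decorate them. Type IV forms the sheet-like network of the basement membrane under the epithelium and around vessels and fat cells, type VII anchors that sheet to the stroma, and types XV and XVIII are proteoglycans of basement membrane zones. Fibroblasts make most of the interstitial chains, and epithelial, endothelial and fat cells make most of the basement membrane chains.

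Levels are log2(intensity + 42.8), where the added constant is the 20th percentile of the whole table, so the change of a weak gene is understated. Levels of different genes are not compared, since each probe set has its own response. The deposited arrays shared a trimmed mean of about 500, and their median intensities ran from 161.4 to 222.7. Normal tissue 3 had the highest signal ceiling (14.38 on the log2 scale near the top of its values, against 13.68 and 13.81 for the other normal tissues), MNU nonmutated cancer 4 had a hexokinase 3'/5' signal ratio of 12.3 (median of all arrays 2.37), and PhIP nonmutated cancer 2 stood apart in the collagens themselves, as described with types I and III. In the comparison of cancers with normal tissue described below, 18% of all genes were called higher and 16.3% lower. Of 7 epithelial markers, 6 were higher in the cancers than in normal tissue. Of 8 adipocyte markers 7 were lower, and their summed level ran from 14.86 to 15.30 in normal tissue and from 9.68 to 12.00 in the cancers. All 7 endothelial markers tested were lower (summed level 12.60 to 13.14 in normal tissue, 10.90 to 12.16 in the cancers). Of 8 macrophage markers 4 were lower, of 8 myoepithelial markers 2 were higher and 1 lower, of 3 Schwann cell markers 1 was lower, and the 5 skeletal muscle markers had 3 positive and 2 negative differences, with a median of 0.12. In whole tissue a lower level from fewer cells of a type and one from less RNA per cell cannot be told apart.

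In the cancers 10 of the 37 collagen genes were higher than in normal tissue and 2 were lower (limma, adjusted p under 0.05). Among all 11773 genes, 34.4% were called, 18% higher and 16.3% lower. The genes that rose were Col2a1, Col9a2, Col7a1, Col4a5, Col18a1, Col8a1, Col4a6, Col11a2, Col4a1 and Col5a2, and those that fell were Col5a3 and Col15a1. No normal tissue exceeded the filter on low values for Col4a6, Col8a1 and Col11a2. These genes came into the test only through the cancers, where they were higher. The median change of the 37 genes was 0.33 on the log2 scale, beside 0.02 for all genes, and 24 of the 37 changes were above 0 (52.2% of all genes). All 33 cancers lay above every normal tissue in 3.94% of all genes, and below in 4.24%. For smaller counts of cancers, given below gene by gene, the share of all genes was not computed. Those counts therefore have no background beside them. The chains of types I and VI, the abundant interstitial collagens, did not pass the threshold in either direction. Leaving out normal tissue 3, Col8a1 (adjusted p = 0.0668) and Col11a2 (adjusted p = 0.145) missed the threshold in limma's fit, and leaving out normal tissue 1 Col4a6 did (adjusted p = 0.0741). Of all genes 23.2% were called in the first of these fits and 27.9% in the second, against 34.4% with all arrays.

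**Figure D1:**
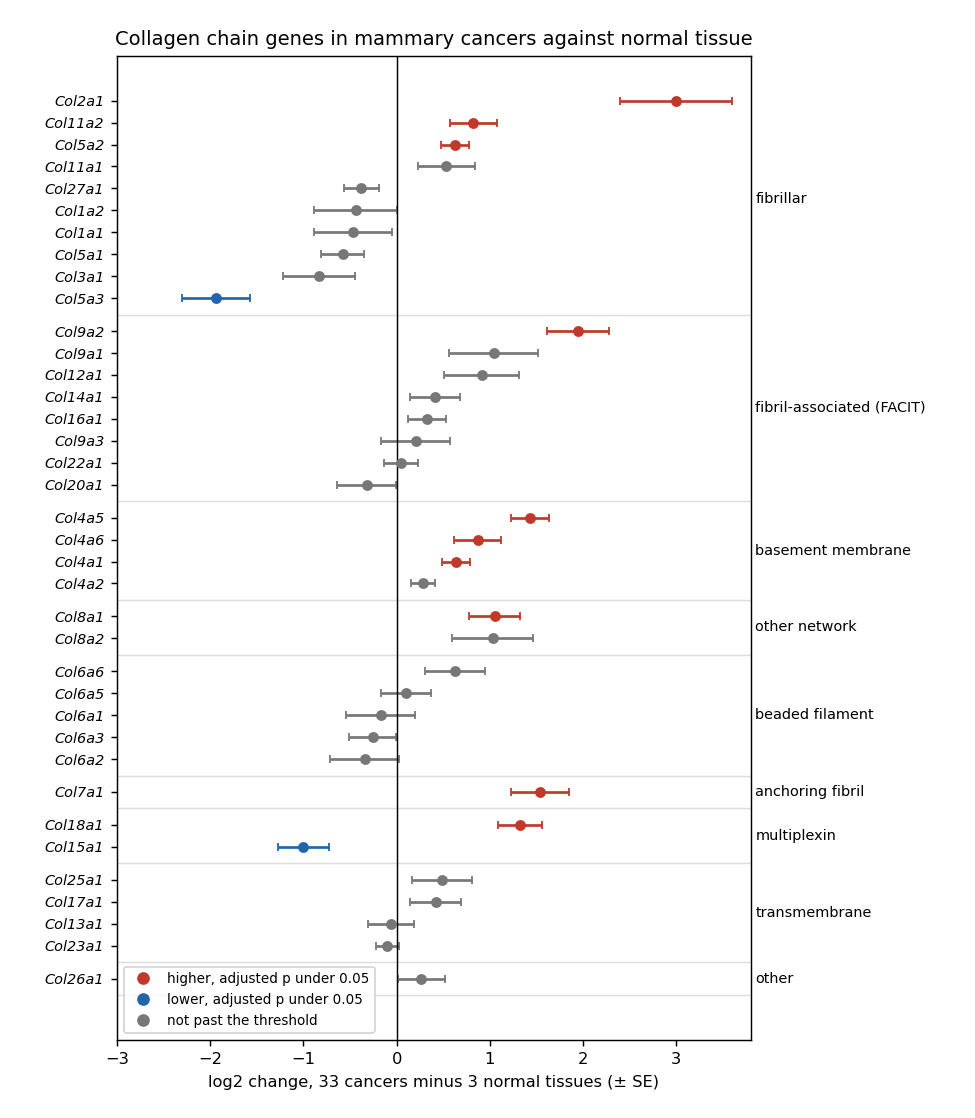
Log2 change of the 37 collagen genes, 33 cancers minus 3 normal tissues, as points with SE bars from the limma fit, grouped by structural class; the x axis is the log2 scale of levels. Red points (10 genes) and blue points (2 genes) passed an adjusted p of 0.05, Col2a1 lies farthest to the right at 3.00 and Col5a3 farthest to the left at -1.94.

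Of the 41 symbols, 32 matched a promoter sequence of RefSeq (build GRCr8). Col1a1, Col2a1, Col3a1, Col6a2, Col9a3, Col12a1, Col14a1, Col22a1 and Col25a1 were not matched. The stretches below are shown because Col4a1 and Col4a2 are transcribed away from each other and their levels moved together, because Col7a1, Col9a2 and Col18a1 rose and Col15a1 fell, and because Col1a2 is the main interstitial chain with a sequence. Capitals mark 3 motifs read on both strands: the letters CCAAT of the CCAAT box, the letters TATAAA of the TATA box and the letters GGGCGG of the GC box. The interval between the starts of Col4a2 (minus strand) and Col4a1 (plus strand) is 76 bases long, with a GC content of 78.9%, and holds 1 GC box. Col1a2 is shown from -250 to -151 before its annotated start, where the CCAAT and TATA letters lie, and the others by the last 100 bases before the start.
Col4a1-Col4a2 interval, chr16:84885521-84885596, plus strand: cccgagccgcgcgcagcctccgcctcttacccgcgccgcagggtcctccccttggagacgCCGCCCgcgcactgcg
Col1a2, chr4:33518307-33518406, plus strand: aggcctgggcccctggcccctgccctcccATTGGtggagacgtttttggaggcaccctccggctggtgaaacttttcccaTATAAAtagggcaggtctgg
Col7a1, chr8:118483264-118483363, plus strand: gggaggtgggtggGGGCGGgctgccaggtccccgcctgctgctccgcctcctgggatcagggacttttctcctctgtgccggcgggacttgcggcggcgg
Col18a1, chr20:11473545-11473644, plus strand: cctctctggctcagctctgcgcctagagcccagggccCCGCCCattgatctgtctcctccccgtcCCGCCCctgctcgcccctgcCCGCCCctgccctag
Col9a2, chr5:139892698-139892797, plus strand: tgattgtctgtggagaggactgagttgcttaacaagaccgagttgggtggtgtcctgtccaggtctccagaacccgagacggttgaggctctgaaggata
Col15a1, chr5:66297446-66297545, plus strand: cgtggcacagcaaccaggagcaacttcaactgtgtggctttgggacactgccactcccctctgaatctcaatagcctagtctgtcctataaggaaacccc

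In the 250 bases before the start, GGGCGG was found in 18 of the 32 collagen promoters, CCAAT in 9 and TATAAA in 4. Among all 33469 promoters of the table the shares were 30.5%, 34% and 12.9%. The GC box letters stood in the windows of Col4a1, Col4a2, Col4a5, Col4a6, Col7a1, Col8a1, Col11a2 and Col18a1 among the genes that rose or share a head-to-head start with one, and also in that of Col5a3, which fell. They also stood in those of Col5a1, Col6a6, Col8a2, Col11a1, Col16a1, Col20a1, Col23a1 and Col27a1, not called over all cancers, and of Col24a1, not tested. Col5a2 and Col9a2, which rose, had a sequence without them. The CCAAT and TATA letters stood together in Col1a2, Col10a1 and Col17a1. A match is a description of letters and not a binding site.

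Among the 10 fibrillar genes tested 3 rose and 1 fell, and the median change was -0.41. Col2a1 codes for the chain of type II collagen, the fibril of cartilage. In normal tissue its levels were 7.40, 7.37 and 8.24. In the cancers the lowest was 7.29, the median 10.79 and the highest 12.74. All but 1 cancer lay above every normal tissue, and the exception was radiation plus PhIP cancer 1. Its rise was 3.00 ± 0.60 (SE) on the log2 scale, a 7.99-fold difference (limma, adjusted p = 0.000341), and without that cancer it was 3.10 ± 0.49. The spread over the cancers (SD 1.06, n = 33) was the widest of the 37 genes.

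By group, Col2a1 was 10.14, 11.14 and 11.48 in spontaneous cancers and 12.65, 9.33, 9.99 and 11.99 in radiation cancers. After MNU it was 9.42, 10.44, 10.79 and 10.09 in nonmutated and 10.87, 12.74, 10.79, 10.98 and 10.96 in mutated cancers. After PhIP it was 12.23, 11.51 and 10.15 in nonmutated cancers and 9.51 in the mutated one. The MNU nonmutated cancers lay below the mutated ones, by a margin smaller than the rounding of these levels, the lone mutated PhIP cancer lay below its nonmutated counterparts, and all of these arrays lay above normal tissue. After radiation plus MNU the levels were 10.67, 10.42, 10.55 and 10.53 in nonmutated and 10.21, 9.01, 11.01, 11.18 and 11.05 in mutated cancers, and after radiation plus PhIP 7.29, 10.65, 10.98 and 11.38. The 4 nonmutated radiation plus MNU cancers were the closest together (SD 0.10), and the radiation plus PhIP cancers the widest apart (SD 1.88).

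The probe sets of Col2a1 did not give the same result. The one used exceeded the filter on 34 arrays. A second, above it on 26 arrays, had 7.14 ± 0.27 (SD, n = 3) in normal tissue and 7.70 ± 0.47 (SD, n = 33) in the cancers, a difference of 0.56 ± 0.26 (SE) that did not pass the threshold (limma, adjusted p = 0.109), and its correlation with the first over the 33 cancers was 0.761. The remaining probe set exceeded the filter on 0 arrays. Other cartilage and bone markers gave no rise. Of 8 listed, Sox9, Sp7 and Runx2 had no probe set in the table used, and Comp, Ibsp and Bglap were above 125.8 on 0 arrays. Acan, the large cartilage proteoglycan, differed by -0.10 ± 0.12 (SE), and Matn1, a cartilage matrix linker, was lower by -0.45 ± 0.16 (SE; limma, adjusted p = 0.026).

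Col11a2 codes for a chain of type XI, a minor fibrillar collagen. Its levels were 6.98, 6.61 and 6.14 in normal tissue and ran from 6.41 to 8.43 in the cancers with a median of 7.35, and 30 of 33 cancers lay above every normal tissue. Col11a2 passed the filter on low values only through the cancers. It rose by 0.82 ± 0.25 (SE; adjusted p = 0.0119 in limma). Its partner Col11a1 differed by 0.53 ± 0.31 (SE) and did not pass (adjusted p = 0.183 in limma).

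The chains of type V, which helps to start fibrils, went in different directions. Col5a2 rose from 11.65, 11.47 and 11.39 in normal tissue to between 11.67 and 12.59 in the cancers, with a median of 12.14. Every cancer lay above every normal tissue, by a narrow margin at the lower end. The change was 0.62 ± 0.15 (SE; limma, adjusted p = 0.002). Col5a3 was 10.78, 9.48 and 10.38 in normal tissue, and in the cancers its lowest level was 6.59, its median 8.35 and its highest 9.39. Every cancer lay below every normal tissue, and the level fell by 1.94 ± 0.36 (SE), a 3.83-fold difference (limma, adjusted p = 0.000159). By group, Col5a3 was 8.74, 8.48 and 9.39 in spontaneous cancers, 7.60, 8.75, 7.80 and 9.19 after radiation, and 8.96, 7.73, 6.59, 7.38 and 8.20 in mutated cancers after radiation plus MNU, which held the lowest value. Among all genes, 3.94% lay above in every cancer and 4.24% below. Col5a1 was 10.10 ± 0.10 (SD, n = 3) in normal tissue and 8.72 to 10.30 in the cancers, with 27 of 33 cancers below, and its change of -0.58 ± 0.23 (SE) missed the threshold (limma, adjusted p = 0.0538). The second probe set of Col5a1 differed by only -0.15 ± 0.21 (SE; limma, adjusted p = 0.625).

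Col1a1 and Col1a2, the chains of type I collagen, and Col3a1, the chain of type III, form the bulk of mammary stroma. Col1a1 was 12.62, 12.51 and 13.23 in normal tissue, and 9.84 at the lowest, 12.33 at the median and 13.41 at the highest in the cancers. The groups overlapped, with 17 cancers below and 2 above every normal tissue. The change was -0.47 with a 95% interval of -1.33 to 0.39 (limma, adjusted p = 0.406). Col1a2 differed by -0.44, with an interval of -1.34 to 0.47 (limma, adjusted p = 0.467), and the second probe set of each gene did not pass either (0.04 and -0.20).

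Col3a1 was narrow in normal tissue, at 13.30, 13.28 and 13.38. In the cancers its lowest level was 9.53, its median 12.58 and its highest 13.37. All but 1 of the 33 cancers lay below every normal tissue, yet the change of -0.83 ± 0.39 (SE) did not pass the threshold (limma, adjusted p = 0.0969). The lowest value was that of PhIP nonmutated cancer 2. Without it the change was -0.74 ± 0.19 (SE) and passed (limma, adjusted p = 0.00377), Col5a1 passed as well (-0.56 ± 0.21, adjusted p = 0.044), and the count of lower collagen genes went from 2 to 4. Of all genes 33.9% were called in that fit.

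PhIP nonmutated cancer 2 was lowest of all 36 arrays in several interstitial chains. It had 9.84 for Col1a1, where the other PhIP nonmutated cancers had 12.95 and 13.41. For Col1a2 it had 9.34 against 12.76 and 13.07, and for Col6a1 9.14 against 11.80 and 11.77. Col4a1, at 13.21 in this cancer against 12.59 and 12.74, was not low there. The summed level of 10 fibroblast markers without collagens was 12.26 in this cancer, the lowest of the 33, against 14.20 and 14.52 in the other PhIP nonmutated cancers. It was also the lowest of the 33 in the summed macrophage markers (12.43, against 13.29 and 13.44 in the other PhIP nonmutated cancers) and in the summed endothelial markers (10.90, against 11.25 and 11.87). The part of these marker levels in the low collagen values was not tested.

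**Figure D2:**
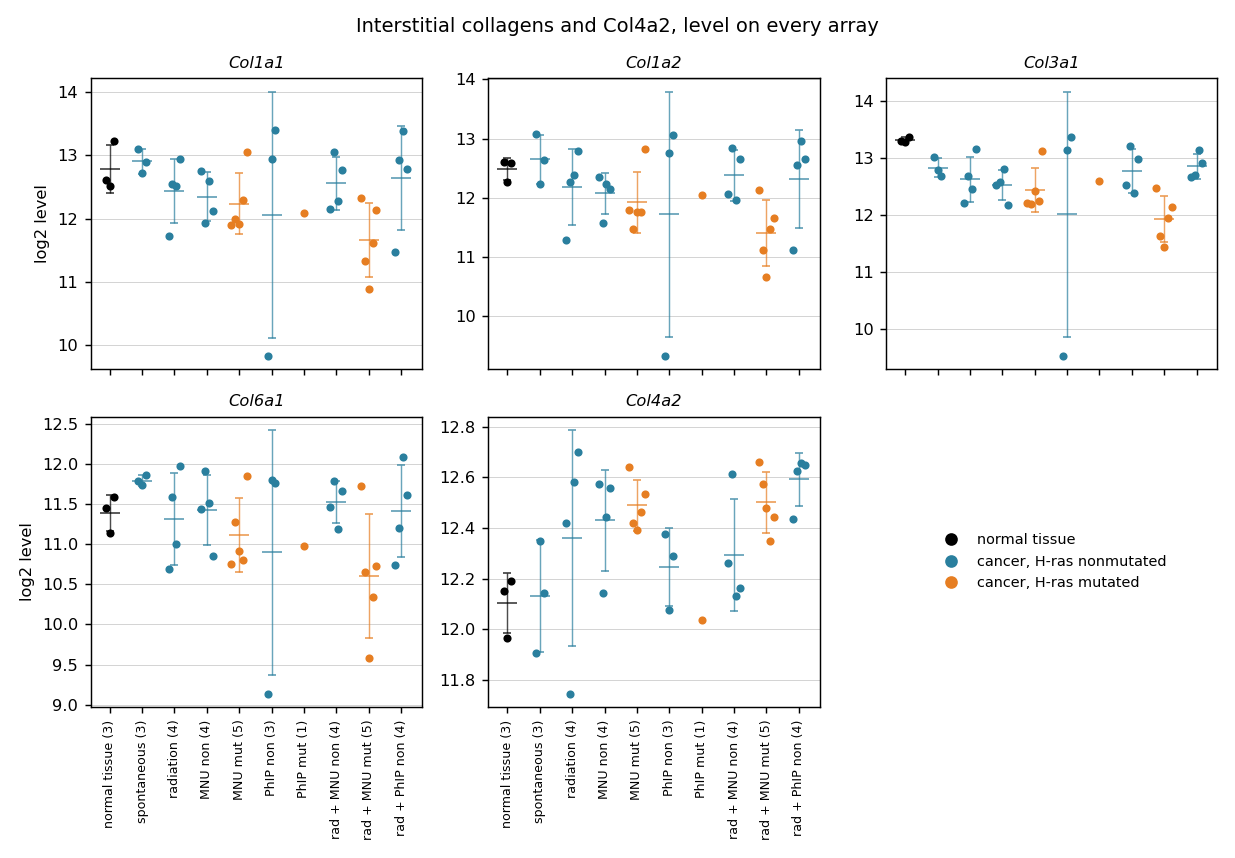
Level (log2) on every array of Col1a1, Col1a2, Col3a1, Col6a1 and, for contrast, Col4a2, by group with the number of arrays in brackets; points are arrays, and horizontal marks with bars are group means ± SD. The lowest point for Col1a1 (9.84), Col1a2 (9.34), Col3a1 (9.53) and Col6a1 (9.14) is the same PhIP nonmutated cancer, and it is not the lowest point for Col4a2.

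Of the 8 fibril-associated genes tested, 1 rose and none fell, and the median change was 0.37. Col9a2 codes for a chain of type IX collagen, which sits on type II fibrils in cartilage. It was 7.67, 7.23 and 8.04 in normal tissue, and in the cancers ran from 8.36 through a median of 9.70 to 10.52. Every cancer lay above every normal tissue. The rise was 1.94 ± 0.33 (SE), a 3.84-fold difference (limma, adjusted p = 5.27e-05). The other type IX chains did not pass. Col9a1 differed by 1.04 ± 0.48 (SE; limma, adjusted p = 0.0919), with cancers between 5.74 and 9.55, and Col9a3 by 0.20 ± 0.37 (SE; adjusted p = 0.697 in limma). Over the 33 cancers Col2a1 and Col9a2 had a correlation of 0.12 (Spearman 0.128, permutation p adjusted over 14 pairs 0.545).

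Col12a1, a chain that bridges type I fibrils, differed by 0.91 ± 0.40 (SE) and missed the threshold (limma, adjusted p = 0.0758). Its levels were 9.37, 8.83 and 8.40 in normal tissue and 8.06 to 10.83 in the cancers. Its second probe set rose by 1.12 ± 0.33 (SE) and did pass (limma, adjusted p = 0.0109; over all 21976 probe sets 17.4% were called higher). Col16a1 at 0.33 ± 0.20 and Col14a1 at 0.41 ± 0.27 (SE) did not.

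Of the 4 basement membrane chains tested, 3 rose, and the median change was 0.75. Col4a1, one of the chains found in every basement membrane, was 12.39, 12.10 and 12.30 in normal tissue and ran from 12.29 through a median of 12.94 to 13.26 in the cancers, with 30 of 33 above every normal tissue. It rose by 0.64 ± 0.15 (SE; limma, adjusted p = 0.00158), and its second probe set by 0.75 ± 0.16 (limma, adjusted p = 0.000812). Col4a2, the partner that shares the 76-base interval shown above, was 12.15, 11.97 and 12.19 in normal tissue and 11.75 to 12.70 in the cancers. Its difference of 0.29 ± 0.13 (SE) did not pass (limma, adjusted p = 0.0789), and 25 of 33 cancers lay above every normal tissue. The difference between the changes of Col4a1 and Col4a2 was not tested.

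Col4a5 and Col4a6 code for the chains of a second type IV network found under some epithelia and smooth muscle, and also lie head to head, with 1414 bases between their starts in GRCr8. Col4a5 was 9.53, 9.03 and 9.12 in normal tissue. In the cancers it ran from 9.94 through 10.62 to 11.37, every cancer above every normal tissue. It rose by 1.44 ± 0.20 (SE), a 2.71-fold difference with the smallest adjusted p of the collagens (limma, 3.94e-06). Col4a6 was 6.24, 6.76 and 6.56 in normal tissue and 5.99 to 8.28 in the cancers, with 32 of 33 above. Col4a6 passed the filter on low values only through the cancers. It rose by 0.87 ± 0.25 (SE; limma, adjusted p = 0.00866). Its second probe set, at 0.57 ± 0.22, did not pass (limma, adjusted p = 0.0529).

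Col7a1, the anchoring fibril chain, was 8.43, 7.84 and 8.33 in normal tissue and 8.44 at the lowest, 9.71 at the median and 10.71 at the highest in the cancers. Every cancer lay above every normal tissue, the lowest only just. It rose by 1.54 ± 0.31 (SE), a 2.90-fold difference (limma, adjusted p = 0.000364). The type XVIII and XV chains, whose ends release endostatin-like fragments, went opposite ways. Col18a1 was 10.27, 9.98 and 10.07 in normal tissue and 10.25 to 12.21 in the cancers with a median of 11.47, and 32 of 33 cancers lay above. It rose by 1.32 ± 0.24 (SE; limma, adjusted p = 9.08e-05), and its second probe set rose by 1.12 ± 0.26 (limma, adjusted p = 0.0014). Col15a1 was 11.49, 11.22 and 11.37 in normal tissue and 8.93 to 11.25 in the cancers with a median of 10.47, and 32 of 33 cancers lay below. It fell by 1.00 ± 0.27 (SE; limma, adjusted p = 0.00534), and its second probe set fell by 1.30 ± 0.32 (limma, adjusted p = 0.00261). Adipocyte and endothelial markers, given above, fell in the same cancers as Col5a3 and Col15a1, and their part in these falls was not tested.

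Col8a1, a chain of the short-chain network of vessel walls and Descemet's membrane, was 7.33, 6.91 and 6.44 in normal tissue. In the cancers it ran from 7.26 to 8.75 with a median of 7.92, and 28 of 33 lay above every normal tissue. Col8a1 passed the filter on low values only through the cancers. It rose by 1.05 ± 0.27 (SE; limma, adjusted p = 0.00373). Its partner Col8a2 differed by a similar 1.03 ± 0.43 (SE) with a wider spread and did not pass (limma, adjusted p = 0.0636). None of the 5 type VI chains of beaded filaments passed, with changes from -0.34 for Col6a2 to 0.63 for Col6a6 (limma; 0 of the 5 had an unadjusted p under 0.05). None of the 4 transmembrane chains passed either. Col17a1, the hemidesmosome collagen of basal epithelium, was 10.11, 10.29 and 10.30 in normal tissue and 9.12 to 11.59 in the cancers, with a median of 10.62, a difference of 0.42 ± 0.27 (SE; limma, adjusted p = 0.24).

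**Figure D3:**
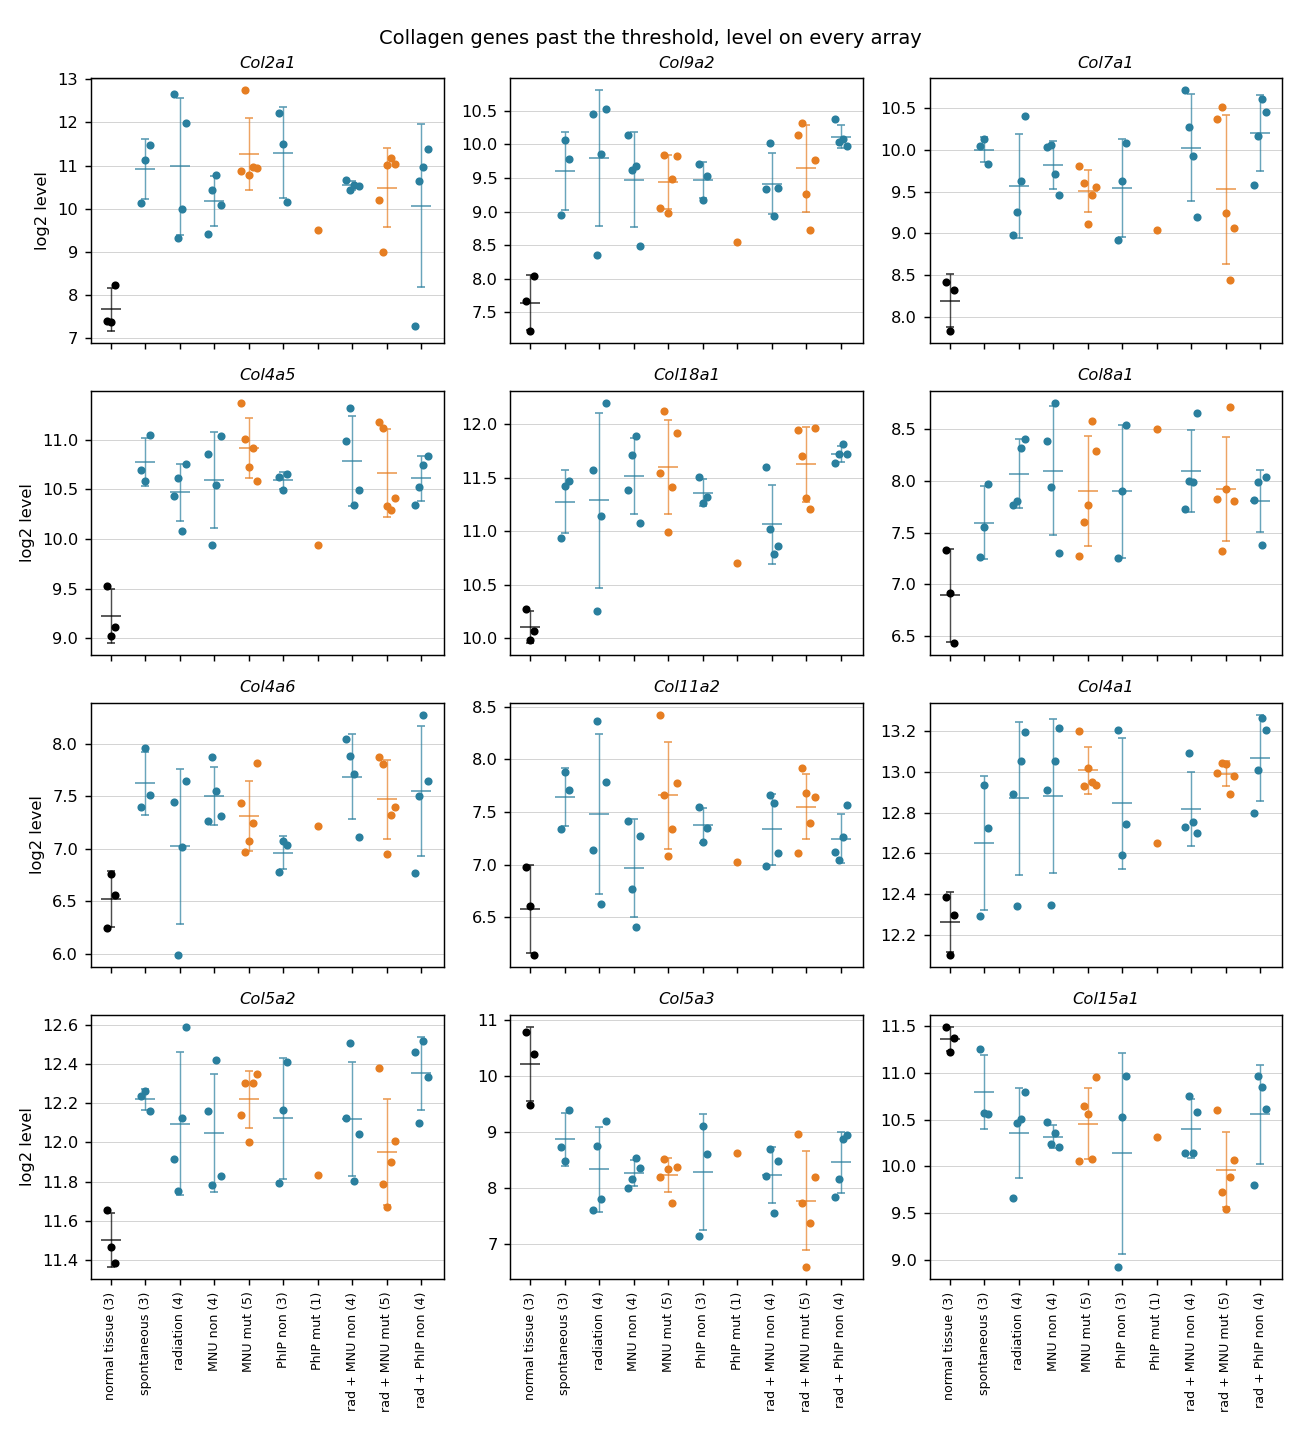
Level (log2) on every array of the 12 collagen genes past the threshold, by group with the number of arrays in brackets; black points are normal tissue, blue points nonmutated and orange points H-ras mutated cancers, and horizontal marks with bars are group means ± SD. Col4a5, Col5a2, Col7a1 and Col9a2 have all 33 cancers above normal tissue, Col5a3 has all 33 below, and for Col2a1 the cancer at 7.29 lies below the normal tissues.

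Each of the 8 cancer groups with at least 3 arrays was also set against the 3 normal tissues. These comparisons share the normal tissues, so their values only stand side by side. Col2a1, Col4a5, Col7a1, Col9a2 and Col18a1 were higher in all 8 groups, and Col5a3 was lower in all 8 (limma, adjusted p under 0.05). The share of all genes called in all 8 groups was not computed, so these counts have no background beside them. The changes of Col2a1 ran from 2.40 to 3.62 over the groups, those of Col9a2 from 1.77 to 2.47, those of Col4a5 from 1.25 to 1.70, those of Col7a1 from 1.31 to 2.00 and those of Col5a3 from -2.44 to -1.35. Col4a1 and Col5a2 were called in 7 groups, Col8a1 in 6, Col4a6 in 5 and Col11a2 in 4, and Col15a1 was called lower in 5.

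Spontaneous cancers had 10 collagen genes higher and 1 lower, while 13% of all genes were higher and 10.5% lower (23.5% in all). The genes beyond the common set included Col9a1 and Col16a1. Radiation cancers had 11 higher and 2 lower (12.2% and 10.3% of all genes, 22.5% in all), among them Col8a2 and Col12a1. MNU cancers had 9 higher and 2 lower whether nonmutated (11.6% and 10.7%, 22.3% in all) or mutated (15.2% and 13.9%, 29.1% in all), and PhIP nonmutated cancers 8 higher and 2 lower (12.8% and 11.3%, 24.1% in all). Radiation plus PhIP cancers had 9 higher and 1 lower (11.8% and 11.3%, 23.1% in all), with Col4a2 among the former. Radiation plus MNU nonmutated cancers had 9 higher and 1 lower (7.69% and 8.26%, 15.9% in all). Radiation plus MNU mutated cancers had 9 higher and 4 lower (12.3% and 12.8%, 25.1% in all), and the additional lower genes were Col3a1 and Col5a1.

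**Figure D4:**
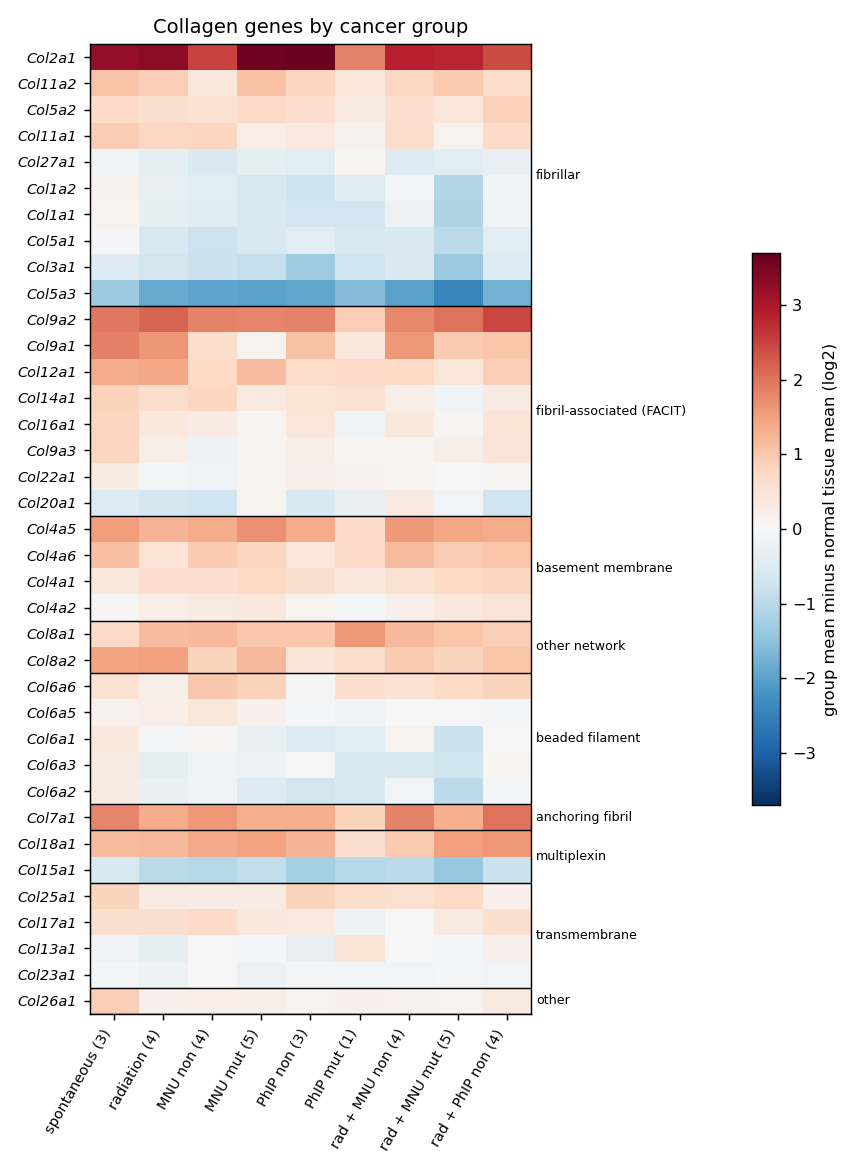
Mean of each cancer group minus the mean of the 3 normal tissues (log2; red higher, blue lower) for the 37 collagen genes in rows, ordered by class, and the 9 cancer groups in columns with their numbers of arrays. Col2a1 is red in every column (2.40 to 3.62 over the groups with at least 3 arrays) and Col5a3 blue in every column; Col1a1, Col1a2, Col6a1 and Col6a2 are pale in most columns and bluest after radiation plus MNU with H-ras mutation.

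H-ras mutated cancers were then set against nonmutated ones, as the mean of their difference after MNU and their difference after radiation plus MNU. No collagen gene passed the threshold in this limma contrast, and none of all 11773 genes did (0%). At an unadjusted p under 0.05 stood 4 collagen genes (886 of all genes, 7.53%), and the smallest unadjusted p values belonged to Col11a2 (0.45 ± 0.20, SE), Col11a1 (-0.53 ± 0.24) and Col6a1 (-0.62 ± 0.29). Within MNU cancers alone 0 passed and 2 of 37 stood under an unadjusted p of 0.05, Col11a2 at 0.69 ± 0.28 and Col20a1 at 0.83 ± 0.35 (limma, 0% of all genes called and 7.84% under that unadjusted p). The third by p was Col2a1 at 1.08 ± 0.67.

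After radiation plus MNU no collagen gene passed the threshold between mutated and nonmutated cancers (limma, 0 collagen genes and 0% of all genes called; 3 collagen genes and 460 of all genes, 3.91%, at an unadjusted p under 0.05). Col1a1 was 12.33, 11.32, 10.89, 11.62 and 12.13 in the mutated and 12.15, 13.05, 12.27 and 12.76 in the nonmutated cancers. In Col1a1, 4 of the 5 mutated cancers lay below every nonmutated one, as they did in Col1a2, Col3a1, Col6a1, Col6a2, Col15a1 and Col16a1. Among all genes tested, 2.5% had at least 4 of the 5 mutated cancers below every nonmutated one. Several of these collagen genes vary together over the 33 cancers (correlation 0.981 for Col1a1 with Col1a2, 0.954 for Col6a1 with Col6a2). They are therefore not separate observations. The difference was -0.90 ± 0.47 (SE) for Col1a1, -0.84 ± 0.43 for Col3a1, -0.92 ± 0.41 for Col6a1 and -0.88 ± 0.41 for Col6a2. Where these genes had a second probe set, it gave -0.66 for Col1a1, -0.78 for Col1a2, -0.53 for Col6a2 and -0.59 for Col15a1. The other chains of types V and VI differed by -0.40 for Col5a1, -0.17 for Col5a2, -0.46 for Col5a3, -0.16 for Col6a3, -0.03 for Col6a5 and 0.21 for Col6a6. Col18a1 differed by 0.56 ± 0.26. The smallest unadjusted p in limma was 0.0332, for Col6a1, and its adjusted p was 1.

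In the same cancers the summed fibroblast markers ran from 13.43 to 13.99 in the mutated and from 13.92 to 14.38 in the nonmutated group. All 10 of these markers had negative differences (median -0.46), as did all 8 macrophage markers (median -0.71) and all 7 endothelial markers (median -0.24), and no member of the 3 lists passed the threshold (limma; the smallest unadjusted p were 0.00298 for Pdgfrb and 0.00915 for Cd68). The summed macrophage markers ran from 12.83 to 14.10 in the mutated and from 13.54 to 14.73 in the nonmutated group, and the summed endothelial markers from 11.31 to 11.64 and from 10.99 to 12.07. Lox, which crosslinks collagen, differed by -1.20 (limma, unadjusted p = 0.0146). Their part in the collagen values was not tested. Whether the H-ras difference itself changed with radiation was asked by the interaction, in which 0 collagen genes and 0% of all genes passed (limma; 1 collagen gene of 37 and 3.32% of all genes at an unadjusted p under 0.05, the collagen gene being Col20a1 at -1.25 ± 0.50). For Col1a1 the interaction was -0.79, with a 95% interval of -2.14 to 0.57.

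Radiation was compared with no radiation in 4 backgrounds of equal weight. No collagen gene passed, and 0% of all genes did (limma; 2 collagen genes and 1166 of all genes, 9.9%, at an unadjusted p under 0.05). Col6a3, a chain of beaded filaments, differed by -0.38 ± 0.15 (SE; limma, adjusted p = 0.42), with means of 11.42 ± 0.19 (SD, n = 3) in spontaneous and 10.78 ± 0.42 (SD, n = 4) in radiation cancers. Its means were 10.88 ± 0.29 (n = 5) and 10.35 ± 0.63 (n = 5) in mutated MNU cancers without and with radiation, and 10.93 ± 0.10 (n = 4) and 10.51 ± 0.49 (n = 4) in nonmutated ones, while PhIP gave 11.11 ± 0.39 (n = 3) and 11.17 ± 0.48 (n = 4). Col6a3 was thus lower on average with radiation in 3 of the 4 backgrounds, and the arrays overlapped in each of the 4. Col14a1 differed by -0.36 ± 0.16 and Col4a2 by 0.11 ± 0.08.

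Across the 6 groups of nonmutated cancers 0 collagen genes differed by limma's F test, against 0.00849% of all genes, and 0 had an unadjusted p under 0.05 (1042 of all genes did, 8.85%). Across the 8 cancer groups with at least 3 arrays 0 passed, against 0.017% of all genes. Col6a3 (unadjusted p = 0.022, adjusted 0.417 in limma) and Col20a1 (unadjusted p = 0.0377) came nearest there. Weighting the arrays by quality changed these calls: Col4a2 then passed over 6 groups (limma, adjusted p = 0.0307) and Col4a2 and Col6a3 over 8 (adjusted p = 0.0394 and 0.0212), while 7.22% and 7.13% of all genes passed.

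Each of the 5 induced nonmutated groups was also set against the 3 spontaneous cancers, which they share. In none of them did a collagen gene pass (limma, with 1 to 3 of 37 at an unadjusted p under 0.05, against 5.08% to 10.3% of all genes). From 7 to 10 of the 37 changes were above 0, beside 43.3% to 48.1% of all genes. The collagen medians ran from -0.36 to -0.21, and those of all genes from -0.04 to -0.01. The same spontaneous cancers enter each of these values. The shares of all genes called were 0.0255% for radiation, 0.0425% for MNU, 0.00849% for PhIP, 0.0764% for radiation plus MNU and 0.0255% for radiation plus PhIP. Values nearest to the threshold were -0.91 ± 0.31 (SE) for Col6a3 after radiation plus MNU and 0.46 ± 0.16 for Col4a2 after radiation plus PhIP, with adjusted p of 0.337 and 0.331 in limma.

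Over 33 cancers the correlation of Col1a1 with Col1a2 was 0.981 (Spearman 0.966), that of Col6a1 with Col6a2 0.954 (Spearman 0.946) and that of Col4a1 with Col4a2 0.888 (Spearman 0.837). For each of these the permutation p was 1e-05, the smallest that 100000 resamples can give, and 2.8e-05 after adjustment over the 14 pairs computed. Without the 2 cancers farthest from the median of the first gene they were 0.964, 0.948 and 0.833, and with group means taken out 0.98, 0.94 and 0.87. Within the 22 nonmutated cancers they were 0.985, 0.951 and 0.894. Within the 10 mutated MNU cancers they were 0.961, 0.937 and 0.617, and the last did not pass there (permutation p adjusted over 14 pairs 0.0904).

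Col1a1 correlated with Col3a1 at 0.913 (Spearman 0.878; 0.854 without the 2 farthest cancers), with Col5a2 at 0.61 (Spearman 0.623; 0.541 without them) and with Col6a3 at 0.638 (Spearman 0.708; 0.674 without them), each with an adjusted permutation p of at most 0.00028. With the crosslinking enzyme Lox the correlation was 0.768 (Spearman 0.676; 0.623 without the 2 farthest). With the fibroblast receptor Pdgfrb it was 0.504 (adjusted permutation p 0.00434), and Spearman's value was 0.41 (adjusted permutation p 0.03). Without the 2 farthest cancers Pearson's r with Pdgfrb was 0.27 (adjusted permutation p 0.2), so its size depends on those cancers. Col1a1 and Col4a1 gave -0.177 (Spearman -0.0949, adjusted permutation p 0.411), and Col1a1 with Serpinh1, the collagen chaperone, gave 0.125 (Spearman 0.271, adjusted permutation p 0.545). Pairs added after the data had been seen gave 0.594 for Col3a1 with Col5a2 (Spearman 0.661, adjusted permutation p 9.33e-05), 0.243 for Col4a5 with Col4a6 (Spearman 0.291, adjusted permutation p 0.242) and 0.108 for Col2a1 with Col11a2 (Spearman 0.233, adjusted permutation p 0.545).

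**Figure D5:**
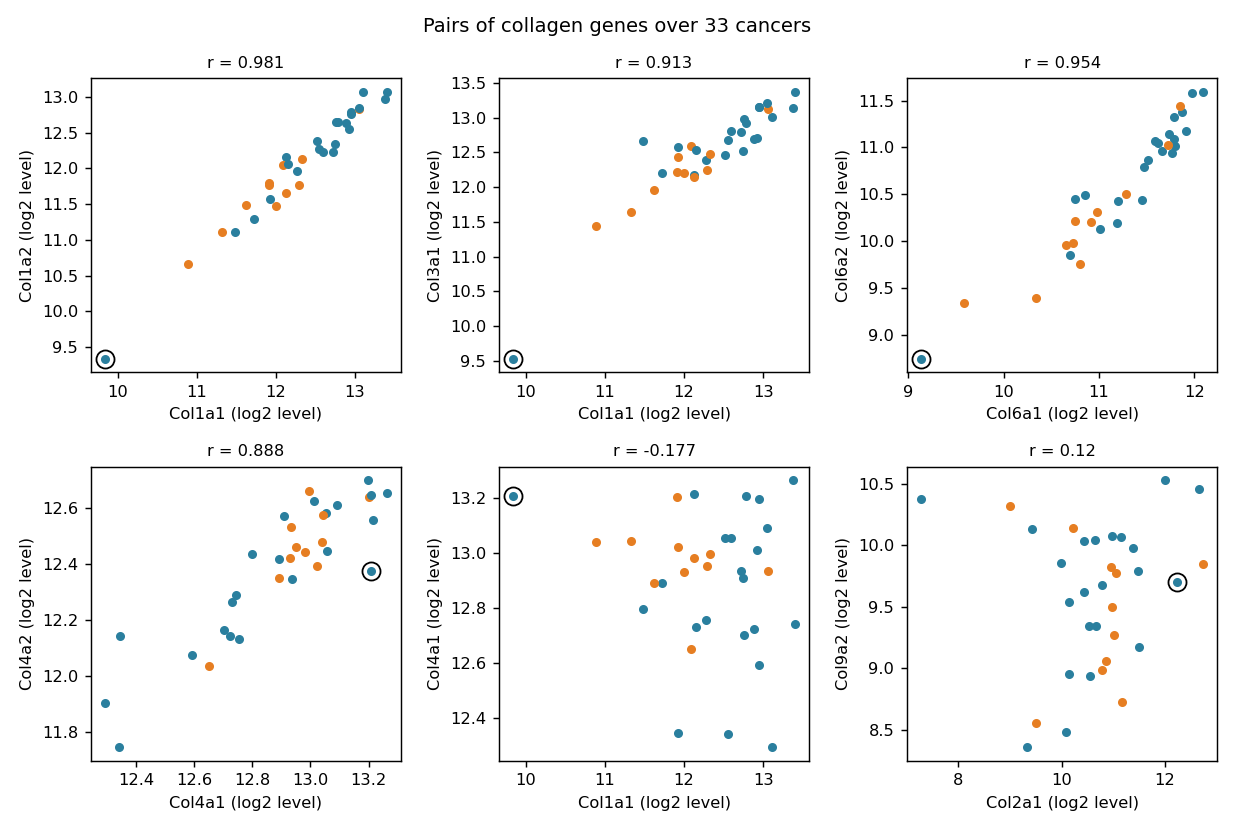
Level of one collagen gene against another (both log2) over the 33 cancers for 6 pairs, with Pearson's r above each panel; blue points are nonmutated and orange points H-ras mutated cancers, and a black ring marks PhIP nonmutated cancer 2. The type I, III and VI pairs lie along a line with the ringed cancer at or near the lower left end, while Col1a1 with Col4a1 (r = -0.177) and Col2a1 with Col9a2 (r = 0.12) form clouds.

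The genes that make, bind and cut collagen were read from lists in the same comparison of cancers with normal tissue, with the median change of all genes at 0.02. In that comparison 18% of all genes were called higher and 16.3% lower, the background for the counts of each list. Of 20 chain-processing genes tested 6 rose and 4 fell, with a median of 0.28. P3h4, a scaffold of the lysine hydroxylation complex, rose from 8.14 ± 0.14 (SD, n = 3) to 9.55 ± 0.26 (SD, n = 33), by 1.42 ± 0.15 (SE; limma, adjusted p = 1.92e-08). Fkbp10, a collagen prolyl isomerase, rose by 1.30 ± 0.19, and P4ha2, a prolyl hydroxylase subunit, by 0.78 ± 0.18. Ppib, another prolyl isomerase, fell by 0.44 ± 0.08.

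Of 5 crosslinking genes, Loxl3 rose (0.81 ± 0.26) and Lox did not pass (-0.07 ± 0.42). Of 8 proteases 3 rose: the collagenase Mmp13 by 3.94 ± 0.60, Adamts1 by 1.41 ± 0.33 and the membrane protease Mmp14 by 1.11 ± 0.26 (limma, adjusted p = 1.1e-05, 0.00153 and 0.00182), and the median of the list was -0.03. Every cancer lay above every normal tissue for Mmp13. Of 11 proteins that bind fibrils 2 fell, Ogn by 2.50 ± 0.43 and Thbs2 by 0.72 ± 0.19, with a median of -0.24. Of 6 receptors, the collagen-binding kinase Ddr2 fell by 1.11 ± 0.26, and the median was 0.02.

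Of 13 basement membrane partners tested 4 rose and 4 fell, with a median of 0.23. The laminin chains Lamb3 (1.50 ± 0.22), Lamc1 (0.99 ± 0.17) and Lama5 (1.46 ± 0.25) rose, with every cancer above every normal tissue, and the linker Nid2 fell by 0.99 ± 0.24. Of 12 regulators 4 rose and 4 fell, with a median of -0.16. Pdgfa (0.91 ± 0.18), the tendon transcription factor Scx (1.01 ± 0.24), the TGF-beta antagonist Smad7 (0.73 ± 0.19) and the matrix protein Ccn2 (0.92 ± 0.26) rose. Tgfb2 (-1.10 ± 0.33), Tgfb3 (-1.14 ± 0.40), Pdgfra (-1.21 ± 0.40) and Fgf2 (-0.38 ± 0.15) fell. Of the 10 fibroblast markers 1 rose and 3 fell, and their summed level was 14.27 to 14.78 in normal tissue and 12.26 to 14.52 in the cancers.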

How the data were processed

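The deposited table holds 1 linear intensity per probe set and array, scaled by the authors to a shared trimmed mean, as the values show; how probes were summarised and arrays scaled is not stated in the labels. Symbols came from the platform annotation (20832 probe sets with 1 symbol, 436 with several, 9831 with none). Intensities were taken as log2(intensity + 42.8). Probe sets above 125.8 (40th percentile) on at least 3 arrays were kept, and 1 per symbol, which left 11773 genes. Groups came from the labels alone. A model with 1 mean per group (10 groups, 36 arrays) was fitted by lmFit, contrasts.fit and eBayes of limma 3.58.1 (R 4.3.3), with Benjamini-Hochberg adjustment over all genes. The cancers were weighted by array; the lone mutated PhIP cancer entered that mean only. Correlations used permutation in Python 3.11.15 with scipy 1.17.1, two-sided. The code was tested on simulated data.

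Collagen genes were named by their symbols; values on every array are given in the text or a plot for those past the threshold and for Col1a1, Col1a2, Col3a1, Col4a1, Col4a2, Col5a2, Col6a1 and Col7a1, and for Col17a1 the normal values with the range and median of the cancers. Up to 4 genes of a partner list were named by smallest adjusted p, and of the regulators also those that fell. In comparisons without calls 3 were named by unadjusted p. Acan, Matn1, Lox and Comp, among others, were named for their function. The genes and lists were chosen with earlier results of these data known. Alternatives varied the constant, filter, scaling, probe set, array weights, variance model and arrays. The replicate numbers of the labels do not pair samples by any statement there.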

Additional observations from a re-analysis of the deposited data

Results flagged for a closer look

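In groups of 4 or 5 cancers, 7 of 138 sets of values (23 genes in 6 groups each, 5.07%) had 1 cancer whose gap to the nearest other was large for the range of its group; chance gives about 1 in 20. MNU mutated cancer 5 was high in 3 fibrillar genes, with 12.83 for Col1a2 (the others 11.47 to 11.79), 13.12 for Col3a1 (12.20 to 12.43) and 10.30 for Col5a1 (9.21 to 9.38). MNU mutated cancer 2 had 12.74 for Col2a1, the highest of all cancers, where the others had 10.79 to 10.98. Radiation plus MNU nonmutated cancer 2 had 13.09 for Col4a1 (12.70 to 12.76). Radiation plus PhIP cancer 1 had 12.44 for Col4a2 (12.63 to 12.66), and radiation plus PhIP cancer 4 had 10.69 for Col16a1 (11.14 to 11.20). PhIP nonmutated cancer 2, described above, belongs to a group of 3 and was not tested in this way.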

How the results depend on the processing

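None of the 1056 gene values under the alternatives turned its direction. The 10 higher collagen genes became 8 to 11 when each array was left out in turn, and the 2 lower genes 2 to 4, with 4 without PhIP nonmutated cancer 2. The share of all genes called ran from 23.2% (without normal tissue 2 or 3) to 36.2% in these fits, against 34.4% with all arrays. Quantile normalization gave 11 higher and 4 lower genes (33.8% of all genes called), Col4a2, Col27a1 and Col5a1 being added. Without the filter on low values Col19a1 and Col4a4, which were not tested otherwise, were added, giving 11 higher and 3 lower (30.2% of all genes called). With array weights 1 collagen gene passed the F test over 6 groups and 2 that over 8; the fit of the weights stopped before its tolerance was met, and the cause of the change was not tested. Among correlations, Col1a1 with Lox (0.665), Col1a1 with Pdgfrb (0.389) and Col4a1 with Col4a2 (0.617) did not pass within the 10 mutated MNU cancers, where fewer samples entered, nor Col1a1 with Pdgfrb without the 2 farthest cancers (0.27). The replicate number as a block gave 10 higher and 3 lower genes (33.6% of all genes called), Col5a1 being added (limma, adjusted p = 0.033). The deviations of same-numbered arrays correlated from -0.498 to 0.394 (median -0.000207, 122 pairs). Those of differently numbered arrays correlated from -0.391 to 0.513 (median 0.000921, 420 pairs). Whether some numbers share a batch was not tested. Of 1056 values of 23 named genes under the alternatives, 1036 stayed on their side of the threshold, 16 came to pass it (9 of them Col5a1) and 4 lost it: Col11a2 with the signal ceiling as a covariate (adjusted p = 0.24) and without normal tissue 3, Col8a1 without normal tissue 3 and Col4a6 without normal tissue 1. With only 3 normal tissues and 33 cancers the number of arrays limits precision. Genes near the filter, such as Col4a6 and Col11a2, lie close to background, and a stricter filter left both untested. Col4a6, Col11a2 and Col8a1 passed the filter only through the cancers (mean normal intensity 50.17, 55.37 and 79.97), which limits their calls as higher.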
